A study of Oryza sativa with 36 samples.

Results

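Root m6A peaks lost in FTO were the 326 peaks in genes that were called in both wild-type (WT) root replicates and in neither FTO root replicate. A peak is a stretch of RNA enriched by an antibody against N6-methyladenosine (m6A) over its input. Of the 14779 peaks in the list of WT root replicate 1, 12280 overlapped a peak of WT root replicate 2 on the same strand by at least 1 bp. Of these 12280 replicated peaks, 326 (2.65%, 95% Wilson interval 2.38 to 2.95) overlapped no peak of FTO root replicate 1 or 2. These are called lost peaks below. A further 1225 were in 1 of the 2 FTO root lists, and 10729, called kept peaks, were in both. The lost peaks were selected on the peak calls of FTO and WT root, so their absence from FTO root and their folds in WT root are given as a description. The intervals of shares cover counting error only.

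The study compared rice (Oryza sativa, Nipponbare) seedlings aged 15 days and grown in hydroponic culture. FTO plants were transgenic rice carrying the RNA demethylase FTO, FTOmut plants carried a form of FTO without demethylase activity, and WT plants carried neither. Roots and shoots of each genotype had 2 replicates of m6A-seq, each made of an immunoprecipitated and an input library of poly(A) RNA, and 2 replicates of RNA-seq. The labels give no promoter, number of transgenic lines or number of pooled plants, and they do not say that replicates came from separate cultures, so p-values measure only the spread between these samples.

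m6A is the most common internal modification of messenger RNA in plants and animals. A methyltransferase complex of the nucleus writes it, mostly towards the end of the coding sequence and in the 3′ untranslated region, and proteins with a YTH domain bind it. FTO is an animal enzyme that removes the methyl group by oxidation. A peak call depends on the number of RNA molecules as well as on the share of them that carry the mark, and it shows neither the modified base nor the share of modified molecules.

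Root RNA-seq libraries held 13409952 to 17083048 gene counts. FTO root libraries had 22.7 and 23.3 gene counts per count of the ERCC spike-in RNA, against 12.2 and 9.82 in FTOmut and 12.4 and 10.6 in WT. In FTO, 2 loci on chromosome 9 took 23.2% and 22.0% of gene counts, against 4.30% and 1.22% in FTOmut and 3.19% and 2.31% in WT. FTOmut replicate 2 stood apart, with 46275 genes at 10 counts or more against 23270 to 30283 in the other 5 root libraries. All 6 listed root marker genes and all 4 listed green-tissue genes were detected in every root library. The root markers summed to 228 and 242 CPM (counts scaled to library size) in FTO, 702 and 365 in FTOmut, and 742 and 642 in WT. The green-tissue genes summed to 108 and 96.0 CPM in FTO root, 808 and 479 in FTOmut root, and 107 and 128 in WT root. In shoot libraries they summed to 962 CPM in WT replicate 2 and to 4099 to 6471 CPM in the others.

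The lost peaks had low folds and were short compared with the kept ones. The deposited fold of immunoprecipitate over input, which is the authors' own value for each peak, had a median of 13.35 in WT root replicate 1 and 13 in replicate 2 among lost peaks, against 35 and 38.2 among kept peaks. The lowest and highest folds of a lost peak were 3.71 and 113 in WT replicate 1. Only 19 of the 326 lost peaks had a mean WT fold of 32 or more. The length in exons had a median of 159 bp among lost peaks, with a range of 109 to 470 bp, against a median of 251 bp among kept peaks. The peaks in 1 of the 2 FTO root lists lay between, with a median fold of 15 in both WT replicates and a median length of 180 bp. A lost peak was split over more than 1 exon block in 29 cases (8.90%), against 456 kept peaks (4.25%).

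**Figure D1:**
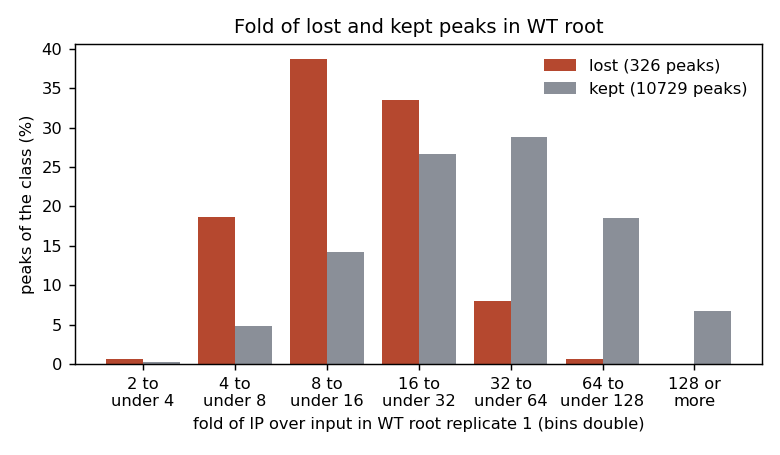
Percentage of lost peaks (left bar of each pair) and of kept peaks (right bar) by fold of immunoprecipitate over input in WT root replicate 1, in bins that double. Most lost peaks lie between folds of 8 and 32, while kept peaks extend beyond 128, where no lost peak lies.

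The threshold of the choice was an overlap of 1 bp with an FTO peak. Just inside it, a lost peak at chr1:3811606-3811764 on the minus strand, with WT folds of 18.3 and 35, lay 10 bp from an FTO root peak. So did one at chr3:9896273-9896383 on the plus strand, with WT folds of 10.4 and 13. A lost peak at chr5:19093693-19093833 on the plus strand, with WT folds of 27 and 24, was at the same distance. Just outside it, peaks at chr1:34366314-34366454 and chr2:28272279-28272516, both with WT folds of 9 and 11, shared 1 bp with an FTO root peak and count as found in FTO. In all, 35 lost peaks lay within 100 bp of an FTO root peak on the same strand and 63 within 1000 bp. Positions are as printed in the deposited lists, for which no genome build was stated.

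The number of lost peaks depends on the lists that the rule demands. Leaving out an FTO or WT list removes a condition, so more peaks count as lost whichever list is left out. With FTO root replicate 2 alone as the FTO list, 725 replicated WT peaks were absent, and with FTO root replicate 1 alone, 1152. The FTO root lists held 14215 peaks in replicate 1 and 15999 in replicate 2, and 826 replicated WT peaks were in replicate 2 only, against 399 in replicate 1 only. With WT root replicate 2 alone as the WT list, 886 peaks were absent from both FTO lists, and with WT root replicate 1 alone, 1311.

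Absence by the same rule was seen in every direction between genotypes. Among 12482 replicated FTO root peaks, 587 (4.70%) were absent from both WT root lists. Of the WT root peaks, 604 (4.92%) were absent from both FTOmut root lists. Of 12692 replicated FTOmut root peaks, 484 (3.81%) were absent from FTO and 849 (6.69%) from WT. The 2.65% of WT peaks absent from FTO was the lowest of the 6 shares among the root genotypes. In shoot, 267 of 11626 replicated WT peaks were absent from FTO and 308 (2.65%) from FTOmut. These shares were not tested.

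Many lost peaks were missing from FTOmut root as well. FTOmut carries the protein without its demethylase activity, and its lists were not used to choose the peaks. Of the 326 lost peaks, 69 (21.2%, 17.1 to 25.9) were in both FTOmut root lists, 78 (23.9%) were in 1 of them, and 179 (54.9%, 49.5 to 60.2) were in neither. Taken list by list, FTOmut replicate 1 held 106 of them (32.5%) and replicate 2 held 110 (33.7%). Among kept peaks, 93.5% were in both FTOmut root lists and 1.51% in neither. Among peaks in 1 of the 2 FTO root lists, 47.8% were in both FTOmut root lists. Where a lost peak was found in FTOmut, its median fold was 13 in replicate 1 (106 peaks) and 14.25 in replicate 2 (110 peaks). The WT medians of 13.35 and 13 are over all 326 lost peaks. For the 69 lost peaks in both FTOmut root lists, the median fold was 15 in each WT and each FTOmut root replicate.

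The share of lost peaks found in FTOmut differed from that of kept peaks in each of 4 ranges of WT fold. Divided into 4 groups of like size at mean WT folds of 10, 14 and 20.5, the lost peaks were found in both FTOmut lists in 15.4%, 18.5%, 22.0% and 28.2% of cases, from low to high fold. They were in neither FTOmut list in 61.5%, 60.5%, 58.5% and 40.0% of cases, so the strongest group was the one found most. Kept peaks in the ranges of fold up to 20.5 were found in both lists in 79.6%, 84.5% and 86.6% of cases. The top range has no upper limit and held 85 lost and 8141 kept peaks. Kept peaks in it were found in both lists in 96.4% of cases. They reached higher folds than the lost peaks, so the 2 shares of that range are not at like fold. The same lists set the fold and the replicated status, so these values describe the lists and were not tested.

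**Figure D2:**
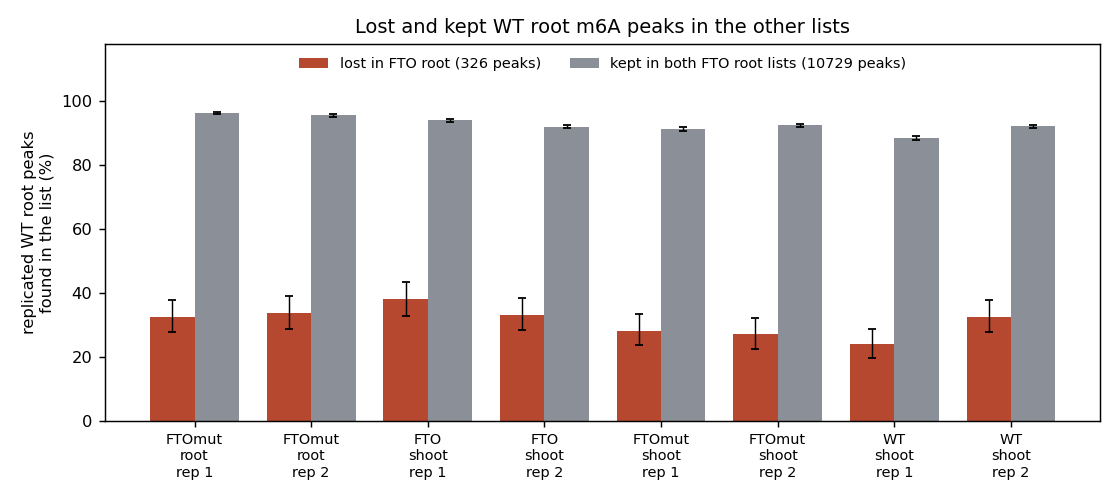
Percentage of lost peaks (left bar of each pair) and of kept peaks (right bar) that overlap a peak in each of the 8 gene peak lists that did not choose them, with 95% Wilson intervals for counting error. Lost peaks were found in 23.9% to 38.0% of cases, and kept peaks in 88.7% to 96.3%.

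Leaving out an FTO or WT root list adds peaks to the lost ones. The share of lost peaks found in both FTOmut root lists moved with this. It was 42.2% when FTO root replicate 1 was left out, 36.3% without FTO root replicate 2, 14.3% without WT root replicate 1 and 9.69% without WT root replicate 2. With only FTOmut root replicate 2 as the FTOmut list it was 33.7%, and with only replicate 1 it was 32.5%.

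Many lost root peaks were present in shoots, those of FTO included. FTO shoot replicates 1 and 2 held 124 (38.0%) and 108 (33.1%) of the 326, FTOmut shoot replicates 92 (28.2%) and 88, and WT shoot replicates 78 (23.9%) and 106 (32.5%). Both FTO shoot lists held 84 (25.8%), both FTOmut shoot lists 62 (19.0%), and both WT shoot lists 59 (18.1%, 14.3 to 22.6). Of the kept peaks, both FTO shoot lists held 90.4%, both FTOmut shoot lists 88.6% and both WT shoot lists 86.4%. In total, 130 lost peaks (39.9%) were in no shoot list, against 1.95% of kept peaks and 25.2% of peaks in 1 FTO root list. In none of the 8 lists outside the choice were 31.0% of lost peaks, against 0.345% and 10.9% in the same order. All 8 lists held 21 lost peaks (6.44%), against 80.8% of kept peaks. With 1 root list left out and more peaks thus counted as lost, the share in both WT shoot lists moved. It was 36.7% and 23.0% without FTO root replicates 1 and 2, and 14.7% and 8.70% without WT root replicates 1 and 2.

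Lost peaks found in FTOmut root were also found in shoots of FTO and WT at higher shares. Both FTO shoot lists held 43 of the 69 lost peaks found in both FTOmut root lists (62.3%), 24 of the 78 found in 1 (30.8%) and 17 of the 179 found in neither (9.50%). Both WT shoot lists held 42.0% of the peaks in both FTOmut root lists, 21.8% of those in 1 and 7.26% of those in neither. Of the 179, 56.4% were in no shoot list. These shares are over peaks, which are not replicates of a genotype, and no test was made.

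Of the lost peaks found in both FTOmut root lists, the highest mean WT fold was that at chr10:21884446-21884865 on the minus strand, in gene LOC_Os10g40780. Its fold was 107 and 85 in FTOmut root and 35 and 113 in WT root, and no FTO root peak lay in the gene. In shoots it was called in all 6 lists, with folds of 87 and 91 in FTO, 196 and 59.5 in FTOmut, and 33 and 40 in WT. Its RNA did not pass the test between any pair of root genotypes. It had 1899 and 2293 counts in FTO root, 2824 and 3033 in FTOmut root, and 2534 and 3010 in WT root. The log2 fold change of FTO against WT was -0.09 (SE 0.18, edgeR adjusted p = 0.690), and it was 0.42 with ERCC scaling (adjusted p = 0.0802). FTO against FTOmut passed with ERCC scaling (adjusted p = 0.0256) and without FTOmut replicate 1 (adjusted p = 0.0224), and FTOmut against WT passed without FTOmut replicate 1 (adjusted p = 0.00185). This peak was missing in FTO root and present in every other genotype and organ. RNA levels of its gene in FTO and WT root overlapped on the log2 CPM scale. The part of RNA level in the missing call was not tested.

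The next in this order was a peak at chr1:38081718-38082018 on the plus strand, with folds of 31 and 33 in FTOmut root and 56 and 28 in WT root. It was called in 1 of the 2 FTO shoot lists. A peak at chr1:28118135-28118374 on the minus strand had folds of 28.3 and 45.5 in FTOmut root and 49.4 and 33.8 in WT root, and was in both FTO shoot lists with folds of 26 and 25.4. Neither gene had an FTO root peak elsewhere. The remaining 2 of the 5 peaks of this class with the highest mean WT fold lay at chr6:31217111-31217230 and chr12:4749052-4749192. Their WT root folds were 5.78 and 72 on chromosome 6, and 20 and 54 on chromosome 12. Their genes had other peaks in both FTO root lists. The nearest FTO root peak on the same strand lay 40 bp away on chromosome 6 and 20 bp away on chromosome 12. Of the 5 genes, 1 was called higher and 2 lower in FTO root than in WT root, beside 16.3% and 18.8% of all genes tested.

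Of the lost peaks found in neither FTOmut root list, the highest mean WT fold was that at chr4:22600658-22600946 on the plus strand, which spans 2 exon blocks of 220 bp in sum. Its folds were 46 and 80 in WT root, and it was in no shoot list. Its gene had 355 and 392 counts in FTO root and 430.5 and 398.5 in FTOmut root, against 1205 and 1431.5 in WT root. Both transgenic genotypes lay below WT without overlap, by log2 fold changes of -1.51 in FTO and -1.89 in FTOmut, and both passed the test. The value in FTOmut was -2.50 without FTOmut replicate 1. The peak at chr10:17612611-17613157 on the plus strand, in gene LOC_Os10g33440, had WT folds of 59 and 60. That gene had 554 and 568 counts in FTO root, 531 and 723 in FTOmut root, and 493 and 624 in WT root. Its RNA did not pass the test in any of the 3 comparisons, and its log2 fold change of FTO against WT was 0.32 (SE 0.18, edgeR adjusted p = 0.157). As log2 CPM it was 5.46 and 5.42 in FTO, 4.97 and 5.09 in FTOmut, and 5.05 and 5.17 in WT, so both FTO libraries lay above the other 4. With ERCC scaling FTO was called higher than WT, by 0.84 (adjusted p = 0.00345), and with only the 4 libraries compared adjusted p was 0.0462. FTO against FTOmut passed with ERCC scaling (adjusted p = 0.00174) and without FTOmut replicate 1 (adjusted p = 0.00737). A second lost peak lay in the same gene at chr10:17612401-17612561, with WT folds of 4.50 and 12, and FTO root had no peak anywhere in the gene. The other 3 of the 5 with the highest mean WT fold lay at chr4:21863009-21863129, chr12:917867-921709 and chr5:16703552-16703811, in genes with other peaks in both FTO root lists. In that order, their WT root folds were 6 and 116, 13.7 and 72.3, and 53 and 16. The nearest FTO root peak on the same strand lay 80, 30 and 1231 bp away. The one on chromosome 12 was in both FTO shoot lists, with folds of 104 and 30.

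The lost peaks fell in 315 genes, of which 11 held 2. In 206 genes (65.4%) every peak of the WT replicate 1 list was lost, and 199 genes had only 1 peak in that list. FTO root had no peak anywhere in 207 of the 315 genes, a peak in 1 list in 35, and a peak in both lists in 73. In all, 108 genes (34.3%) had a peak elsewhere in FTO root. Where a lost peak shared its gene with a kept one, in 68 cases, it lay on the 5′ side of the gene's strongest kept peak in 51 and on the 3′ side in 17. The side was not counted for other peaks, so this split is not read as a trait of lost peaks. Lost peaks were on all 12 chromosomes, from 2.07% of the replicated peaks on chromosome 2 to 4.30% (27 of 628) on chromosome 10.

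Genes with a lost peak had little RNA in every root library. The median log2 CPM per kb, a level scaled by gene length, was 1.11 and 1.09 in FTO, 1.09 and 0.93 in FTOmut, and 1.70 and 1.77 in WT. For the 9684 genes with a kept peak and no lost peak it was 3.23 and 3.29 in FTO, 3.06 and 2.75 in FTOmut, and 3.47 and 3.48 in WT. In counts, the median gene with a lost peak had 48 and 51 in FTO, 72 and 86 in FTOmut, and 102 and 111 in WT. In bulk root, fewer cells of a type and less RNA per cell cannot be told apart.

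**Figure D3:**
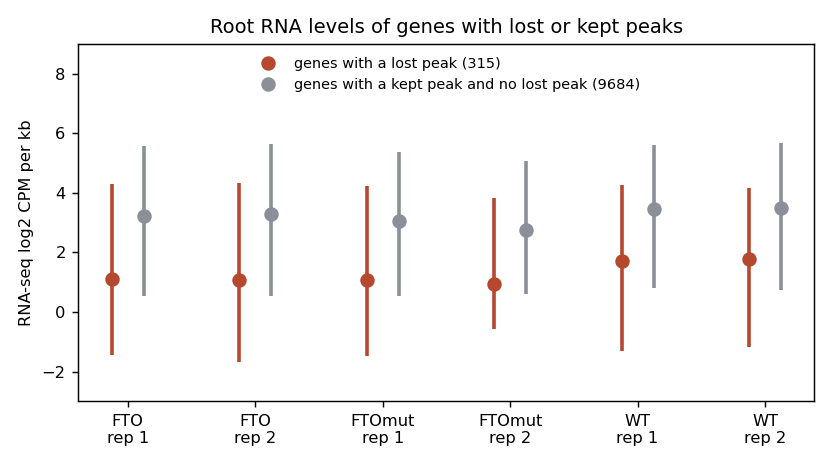
Root RNA-seq level in log2 CPM per kb for genes with a lost peak (left of each pair) and for genes with a kept peak and no lost peak (right), by library. Points are medians and lines run from the 10th to the 90th percentile of genes. The medians of genes with a lost peak lie between 0.93 and 1.77, and those of genes with a kept peak between 2.75 and 3.48.

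The share of replicated WT peaks that was lost followed the RNA level of the gene. It was 7.54% (72 of 955 peaks) where the mean WT level was under 0 log2 CPM per kb, 2.32% between 2 and 3, and 0.533% (4 of 751) at 6 or more. By the log2 fold change of RNA in FTO against WT root, the lost share was 25.7% (29 of 113 peaks) where RNA was lower by more than 2. It was 3.76% between -2 and -1, and 1.67% to 2.60% in the 4 ranges from -1 to 1. It was 3.27% between 1 and 2, and 3.83% (11 of 287) at 2 or more. Peaks in genes with strongly lower fitted RNA were thus a small group, 29 of the 326 lost peaks, with the highest share lost. FTO and WT root chose the peaks, so this is a description, and the part of RNA level in the peak calls was not tested.

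**Figure D4:**
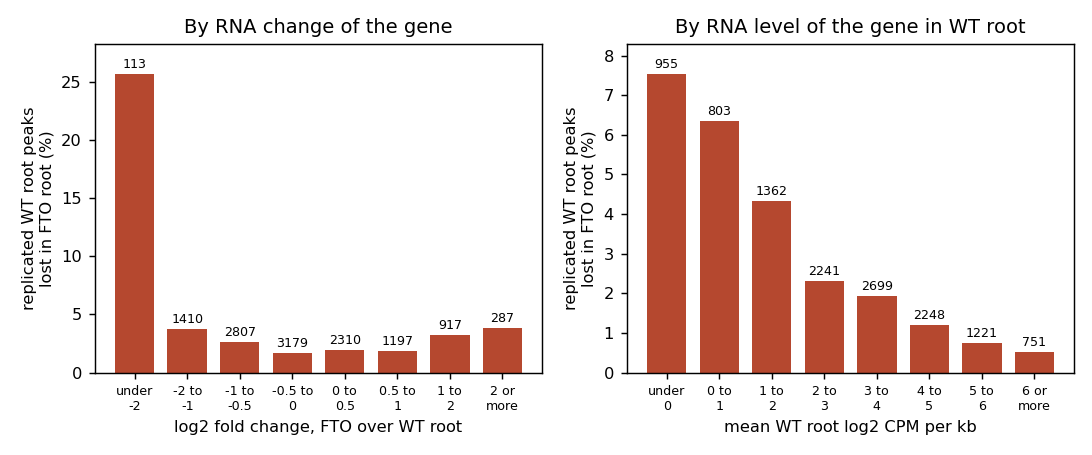
Percentage of replicated WT root peaks that were lost in FTO root, by the log2 fold change of the gene's RNA in FTO over WT root (left panel) and by the gene's mean WT root level (right panel). Numbers above bars are the replicated peaks in each range. The share is 25.7% where RNA was lower by more than 2 on the log2 scale, and it is 7.54% at the lowest and 0.533% at the highest WT level.

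In RNA-seq, 306 of the 315 genes with a lost peak passed the filter on low counts. In FTO against WT root, edgeR's quasi-likelihood test at a Benjamini-Hochberg adjusted p under 0.05 called 38 higher (12.4%, against 16.3% of all 32467 genes tested) and 89 lower (29.1%, against 18.8% of all genes tested). The remaining 179 were not called. Since FTO and WT root chose the members, nothing is read from these counts. The genes with a kept peak and no lost peak gave 12.6% higher and 29.3% lower. The median log2 fold change was -0.49 for genes with a lost peak, -0.27 for genes with a kept peak and 0.19 for all genes.

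The split of calls depended on the scaling of the libraries. With libraries scaled to the ERCC spike-in, 65 genes with a lost peak were higher and 41 lower in FTO root than in WT root, and their median log2 fold change was 0.01, beside 0.69 for all genes. The 65 and 41 genes are 21.2% and 13.4% of the members, beside 29.7% higher and 7.45% lower of all genes under the same scaling. With 1 library left out, the lower calls numbered 54 without WT replicate 2, 45 without FTO replicate 1, 43 without FTO replicate 2 and 138 without FTOmut replicate 2. The higher calls numbered 20 without WT replicate 1, 17 without WT replicate 2, 21 without FTO replicate 1 and 23 without FTO replicate 2. The summed root markers given above were also lower in FTO than in WT, and their part in these counts was not tested.

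FTOmut root was compared with WT root in the same way. Of the same 306 genes, 38 were called higher (12.4%, against 32.5% of all genes tested) and 112 lower (36.6%, against 29.1%), with a median log2 fold change of -0.46. Of the 9657 tested genes with a kept peak and no lost peak, 1066 were higher and 4761 (49.3%) lower, and the median was -0.55. A share of higher calls below that of all genes was thus common to genes with a lost and with a kept peak. This comparison shares its WT libraries with that of FTO against WT. The higher calls numbered 23 without WT replicate 1 and 19 without WT replicate 2. FTOmut root carried more green-tissue RNA than the other roots, and the part of this in these counts was not tested.

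FTO against FTOmut root compares plants that carry the active protein with plants that carry the inactive one. Their roots also differed in the green-tissue sums given above, and the part of this in the counts below was not tested. In this comparison, 47 of the 306 genes were called higher (15.4%, against 14.8% of all genes tested) and 19 lower (6.21%, against 5.47%). Both shares were near those of all genes in this fit of all 6 libraries. Among genes with a kept peak and no lost peak, 22.0% were higher and 4.74% lower, so more of these were higher than of the genes with a lost peak. The median log2 fold change was 0.06, beside -0.11 for all genes and 0.26 for genes with a kept peak. Without FTOmut replicate 1 the medians of members and of all genes were 0.38 and -0.45, so members and all genes lay apart. Without FTOmut replicate 2 they were 0.01 and -0.0076. The share of all genes called also moved with the library left out. Scaling to ERCC gave 110 higher (35.9%) and 5 lower (1.63%), beside 32.7% higher and 2.1% lower of all genes, with a median of 0.57 for genes with a lost peak and 0.40 for all genes. The higher calls ranged from 18 (without WT replicate 2 or FTO replicate 2) to 110 (without FTOmut replicate 1). They numbered 21 without WT replicate 1, 27 without FTO replicate 1 and 27 without FTOmut replicate 2. The lower calls numbered 2 without either FTO library, 12 without WT replicate 2 and 36 without FTOmut replicate 2.

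Genes were also divided by whether their lost peak was found in FTOmut root. Counted per peak, genes of the 69 lost peaks in both FTOmut root lists had a median log2 fold change of -0.13 in FTO against WT root, with 5 higher (7.69%), 14 lower (21.5%) and 46 not called. Genes of the 179 peaks in neither list had a median of -0.58, with 19 higher (10.9%), 58 lower (33.1%) and 98 not called. The shares were 16.3% higher and 18.8% lower over all genes tested, and 12.6% and 29.3% over genes with a kept peak. The medians in FTOmut against WT were -0.15 for the peaks in both lists and -0.64 for those in neither. For genes with a kept peak the FTOmut against WT median was -0.55. With ERCC scaling the medians in FTO against WT were 0.38 for peaks in both lists and -0.06 for those in neither, so the direction in FTO depended on the scaling. Genes with another peak in FTO root had a median of -0.23 in FTO against WT (0.28 with ERCC scaling), and genes with none had -0.56 (-0.06 with ERCC scaling). The difference between these classes was not tested.

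Of 151 pathway and marker genes listed for this tissue, 53 had a replicated WT root peak, 46 had a kept peak and 3 had a lost peak. Of all 10816 genes with a replicated WT root peak, 315 (2.91%) had a lost one, so counts this small say nothing of a pathway. The 3 were 1 of 5 with a replicated peak in the list for gibberellin and brassinosteroid, 1 of 4 for cell wall and cell cycle, and 1 of 9 for clock and flowering. Symbol and identifier could be checked against each other for the first 2, SLR1 and OsCESA7, and the third is not named. None of the 10 listed genes of iron uptake and none of the 11 of abscisic acid, drought and cold had a lost peak, among 2 and 4 with a replicated peak.

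SLR1 (LOC_Os03g49990) encodes the DELLA protein of rice, the repressor of gibberellin signalling that is degraded when the hormone is bound by its receptor. Its lost peak lay at chr3:28512864-28513094 on the plus strand, spans 231 bp and had WT root folds of 32.5 and 14.8. It was the only peak of the gene in the WT replicate 1 list. No list of FTO or FTOmut root, nor any shoot list, had a peak that overlaps it, and FTO root had none elsewhere in the gene. SLR1 had 1499 and 1560 counts in FTO root, 1640 and 1365 in FTOmut, and 990 and 1106 in WT. As log2 CPM these are 6.89 and 6.88 in FTO, 6.59 and 6.01 in FTOmut, and 6.06 and 6.00 in WT. Both FTO libraries lay above the other 4, while 1 FTOmut library lay within the WT values. The log2 fold change of FTO against WT was 0.86 (SE 0.20, edgeR adjusted p = 0.00489). The call was lost with no filter on low counts (adjusted p = 0.154) and when either WT or either FTO library was left out (adjusted p = 0.199 to 0.397), and adjusted p ranged from 3.29e-05 to 0.397 over the 12 alternatives. FTOmut against WT gave 0.30 (adjusted p = 0.205), a value that was -0.39 without FTOmut replicate 1 (adjusted p = 0.0438) and 0.60 without FTOmut replicate 2 (adjusted p = 0.00777). FTO against FTOmut gave 0.55 (adjusted p = 0.0695). It was 1.07 with ERCC scaling (adjusted p = 0.00280), 1.20 without FTOmut replicate 1 (adjusted p = 5.59e-06) and 0.17 without FTOmut replicate 2 (adjusted p = 0.630). The peak was missing from FTO root and from FTOmut root too. RNA of the gene was higher in FTO than in WT root in the main fit, and its part in the missing call was not tested. Of the 7 listed genes for gibberellin and brassinosteroid, 1 was higher and 1 lower in FTO than in WT root, the higher one being SLR1, beside 16.3% higher and 18.8% lower of all genes tested. In FTOmut against WT root, 0 were higher and 5 lower, beside 32.5% and 29.1% of all genes tested. No test of the list was made.

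OsCESA7 (LOC_Os10g32980) encodes a cellulose synthase subunit of the secondary cell wall. Its lost peak lay at chr10:17264699-17264968 on the plus strand, spans 270 bp and had WT root folds of 10.8 and 7.67. It was found in FTOmut root replicate 1, with a fold of 6.00, and in no other list. The RNA level was 4.49 and 4.68 log2 CPM in FTO root, 4.33 and 4.10 in FTOmut root, and 4.93 and 5.27 in WT root, so both transgenic genotypes lay below WT without overlap on this scale. FTO against WT gave a log2 fold change of -0.53 that did not pass the test (SE 0.20, edgeR adjusted p = 0.0518). It passed in 6 of 12 alternatives, over which adjusted p ranged from 0.00319 to 0.982, and with ERCC scaling the difference itself was -0.0060. FTOmut against WT gave -0.89 (SE 0.20, adjusted p = 0.00211), and adjusted p was 0.0588 without WT replicate 2. Of the 8 listed genes for cell wall and cell cycle, 4 were lower in FTO than in WT root (18.8% of all genes tested were) and 7 lower in FTOmut than in WT root (29.1% of all genes tested), and none was higher. No test of the list was made.

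**Figure D5:**
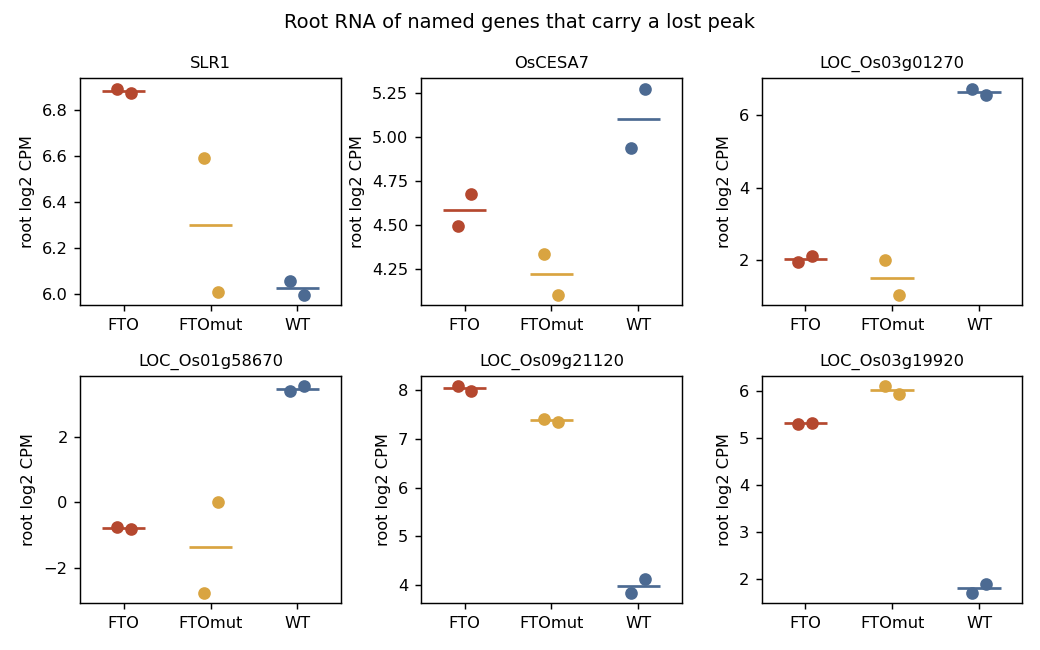
Root RNA-seq level in log2 CPM of 6 genes that carry a lost peak, with a point per library and a line at the mean of the 2 libraries of FTO, FTOmut and WT. Each panel has its own range of levels. Both FTO libraries lie above WT for SLR1, LOC_Os09g21120 and LOC_Os03g19920 and below WT for the other 3.

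The 2 genes with the largest fall and the 2 with the largest rise in FTO against WT root, by the rule for named genes, were picked for those values. Their values in FTOmut use the same WT libraries. LOC_Os03g01270, whose lost peak at chr3:190798-190948 had WT folds of 28.2 and 13.6, had 48 and 57 counts in FTO root, 67 and 43 in FTOmut root, and 1574 and 1614 in WT root. It fell by 4.62 in FTO and by 5.08 in FTOmut on the log2 scale, relative to WT (edgeR adjusted p = 3.35e-08 and 1.06e-08), and the value in FTOmut was -5.98 without FTOmut replicate 1. LOC_Os01g58670, with a lost peak at chr1:33918135-33918365 and WT folds of 30 and 15, had 7 and 7 counts in FTO root, 2 and 21 in FTOmut root, and 158 and 204 in WT root. The few counts in both transgenic genotypes lay below both WT libraries. Its log2 fold change was -4.35 in FTO and -4.24 in FTOmut against WT (edgeR adjusted p = 0.000124 and 6.22e-05), and the value in FTOmut was -6.45 without FTOmut replicate 2. Neither peak was found in an FTOmut root list.

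The 2 genes with the largest rise in FTO root had far more RNA in FTOmut root too. LOC_Os09g21120, with a lost peak at chr9:12746992-12747192 and low WT folds of 6.94 and 4.64, had 3413 and 3391 counts in FTO root, 2912 and 3454 in FTOmut root, and 213 and 300 in WT root. Its log2 fold change was 4.05 in FTO and 3.40 in FTOmut against WT (edgeR adjusted p = 6.61e-09 and 1.19e-08). The peak was found in 1 FTOmut root list with a fold of 4.85. LOC_Os03g19920, with a lost peak at chr3:11199868-11199988 and WT folds of 24 and 18, had 499 and 534 counts in FTO root, 1165 and 1291 in FTOmut root, and 48 and 64 in WT root. It was 3.52 higher in FTO and 4.22 higher in FTOmut than in WT on the log2 scale (edgeR adjusted p = 2.65e-08 and 4.31e-09), and 1 FTO root list had a peak elsewhere in the gene. The fitted RNA level in FTO was 16.6-fold that in WT for LOC_Os09g21120 and 11.5-fold for LOC_Os03g19920. Both genes were picked for their rise in RNA.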

How the data were processed

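m6A-seq and RNA-seq of FTO, FTOmut and WT rice roots and shoots were used, with 2 replicates a group. The submitters' processing notes name cutadapt 1.15, HISAT2 2.1.0, featureCounts and Subread 1.6.4 as the authors' tools. The deposited gene tables hold expected counts (estimated counts, with fractions for shared reads) that are not normalized, and a gene length in bp, a column of another unit. The deposited peak lists, 1 per replicate, give a fold (ratio of immunoprecipitate over input) and a log10 false discovery rate. The labels name MeTPeak as the caller, without its settings.

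Peaks were compared by shared bases of their exon blocks on the same strand, in Python 3.11.15. The fold given for a WT replicate 1 peak in any other list is the highest among the overlapping peaks of that list. A weak peak can thus take the fold of a stronger peak that shares 1 bp with it. Expected counts were rounded, and the 6 root libraries were fitted together with edgeR 4.0.16 (R 4.3.3; filter by expression, TMM, robust quasi-likelihood F test, two-sided, adjusted p under 0.05, no replicate block). Log2 CPM uses a prior count of 0.5. The script was tested on simulated data. Alternatives were RLE size factors, ERCC scaling, no filter, DESeq2 1.42.0, only the 4 libraries compared, a replicate block, each library left out, and other overlap and fold limits. The members and lists were chosen with earlier results of these data known. Genes are named where a listed symbol occurs once, on the chromosome its identifier gives, in the RefSeq table, which is of another assembly and matched none of the identifiers. Named items were the listed genes with a lost peak, the 5 lost peaks of highest mean WT fold in both and in neither FTOmut list, the 2 genes with the largest called rise and the 2 with the largest called fall in FTO (mean log2 CPM at least 1, libraries of FTO and WT not overlapping), and the peaks nearest the threshold. The second lost peak of LOC_Os10g33440 was added after its values were seen. Peaks in repeats were not used here.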

Additional observations from a re-analysis of the deposited data

Results flagged for a closer look

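The difference between FTO and WT had opposite signs in root and shoot for SLR1 and for LOC_Os01g58670, though that of SLR1 in shoot was small. SLR1 was higher by 0.86 log2 CPM in FTO than in WT root, and the difference was -0.10 in shoot, where levels were 5.22 and 5.15 in FTO and 5.26 and 5.31 in WT. LOC_Os01g58670 gave -4.28 in root and 5.02 in shoot, where levels were 2.88 and 3.10 in FTO and 1.20 and -5.27 in WT. In counts these are 74 and 88 in FTO and 33 and 0 in WT, so the lowest level is the floor of a count of 0 and the value 5.02 depends on the prior count. Against WT shoot replicate 1 alone the difference was 1.79. WT shoot replicate 2 also had the lowest green-tissue sum of the shoot libraries, 962 CPM against 4099 to 6471 in the others. The difference between organs was not tested for either gene.

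Of the 326 peaks lost in FTO root, 17 (5.21%) were in both FTO shoot lists and in no WT shoot list, the opposite of their pattern in root. Of these 17, 11 were in both FTOmut root lists, 1 was in 1 of them and 5 were in neither. The reverse, both WT shoot lists and no FTO shoot list, held for 5 lost peaks, and 45 were in both lists of each. All replicated shoot peaks leaned the same way. Of 12681 FTO shoot peaks, 660 were absent from both WT shoot lists, and of 11626 WT shoot peaks, 267 were absent from both FTO shoot lists. The 17 and 5 are thus not read as a trait of lost peaks, and their difference was not tested.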

How the results depend on the processing

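The number of lost peaks was 330 with 0.5 of the shorter peak shared, 323 on either strand and 320 counted from the list of WT replicate 2. With a WT fold of at least 10, chosen after seeing the data because every deposited fold is above 2, it was 175. Leaving out 1 FTO or WT root list loosens the rule and gave 725 to 1311 lost peaks. Of these, 9.69% to 42.2% were in both FTOmut root lists and 8.70% to 36.7% in both WT shoot lists.

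Among genes with a lost peak, leaving out 1 library gave 66 to 185 calls in FTO against WT (17 to 49 higher, 43 to 138 lower), 103 to 200 in FTOmut against WT (19 to 46 higher, 84 to 165 lower) and 20 to 134 in FTO against FTOmut (18 to 110 higher, 2 to 36 lower). ERCC scaling gave 65 higher and 41 lower in FTO against WT, and 115 calls, 110 higher and 5 lower, in FTO against FTOmut. In FTO against FTOmut, higher calls were 31 with no filter, beside 3339 of all 55762 genes tested. They were 29 with DESeq2, beside 3496 of 32467. With only the 4 libraries compared they were 24, beside 2962 of 31615, and there were 40 calls in all.

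The log2 fold changes of 5 named genes turned sign, and the cause was not tested. SLR1 in FTOmut against WT ranged from -0.39 (without FTOmut replicate 1) to 0.60 (without FTOmut replicate 2) with 1 library left out. LOC_Os03g01270 in FTO against FTOmut ranged from -0.078 (without FTOmut replicate 2) to 1.31 (without FTOmut replicate 1). LOC_Os01g58670 in FTO against FTOmut was 0.39 with ERCC scaling, 0.12 without FTO replicate 1, 0.17 without FTO replicate 2 and, at the ends of the range with 1 library left out, -0.55 without FTOmut replicate 1 and 2.01 without FTOmut replicate 2. LOC_Os10g40780 was 0.42 with ERCC scaling in FTO against WT. In FTO against FTOmut it was -0.027 with RLE size factors and with DESeq2, -0.054 with only the 4 libraries compared, and -0.16 to 0.50 with 1 library left out, the ends being without FTOmut replicate 2 and without FTOmut replicate 1. LOC_Os10g33440 in FTOmut against WT was 0.017 with only the 4 libraries compared.

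The replicate numbers are shared by the genotypes, but no label says that they pair samples. The deviations of same-numbered root libraries correlated at -0.04 (FTO and WT), 0.13 (FTOmut and WT) and -0.28 (FTO and FTOmut) over genes. With a replicate block, 44 of the 306 genes with a lost peak were higher and 94 lower in FTO against WT. Over all 32467 genes tested, 6078 were higher and 6390 lower. In FTOmut against WT, 41 were higher and 117 lower, beside 10172 and 9731 of all genes. In FTO against FTOmut, 55 were higher and 19 lower, beside 5513 and 1973 of all genes. With the block, SLR1 passed in FTO against FTOmut (adjusted p = 0.0403, edgeR) and OsCESA7 in FTO against WT (adjusted p = 0.0488, edgeR).

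Depth limits the genes with little RNA. Of the 315 genes with a lost peak, 48 and 58 had under 10 counts in the FTO root libraries, 32 and 5 in FTOmut, and 32 and 24 in WT. The depth of the m6A-seq libraries is unknown from the peak lists, so an absent peak is a peak not called.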
